A study of Homo sapiens with 14 samples.

Results

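ZC3H18 RNA level was examined as a continuous dose across 8 single-cell clones of A375, a human melanoma cell line that carries an activating BRAF mutation. The clones are 8 of the 14 libraries of the series. Their order was chosen by 1 measured value, the log2(FPKM + 1) of ZC3H18, where FPKM is a fragment count scaled to transcript length and library size, and every other gene with at least 1 FPKM in at least 3 clones was ranked against that order. Of 28307 gene names, 12487 passed this filter. The clones were 2 ZC3H18 WT clones made with Cas9 and no guide, 3 ZC3H18 -/+ clones with a heterozygous loss-of-function mutation made with 2 different guides, and 3 ZC3H18 trunc/+ clones with a heterozygous truncating mutation made with 1 guide and a repair donor. All went through transient transfection, antibiotic selection and cloning by limiting dilution. The 3 trunc/+ clones do not all carry the same truncating allele, and every clone is 1 library, so p-values measure the spread between these libraries only. The other 6 libraries were uncloned A375 pools, 3 with an empty vector (bulk control) and 3 after CRISPR against ZC3H18 (bulk Z18 CRISPR), and they served as a second set of samples that the order of clones did not use. All libraries were polyA-selected and stranded.

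ZC3H18 is a zinc finger protein of nuclear RNA surveillance. It joins the cap-binding complex on newly made RNA to the adaptor complexes NEXT and PAXT, which hand RNA to the nuclear exosome for degradation. Copies of endogenous retroviruses (ERVs), the long terminal repeat (LTR) class of transposable elements (TEs), are among the RNAs that nuclear surveillance and chromatin silencing keep low.

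ZC3H18 (chr16:88570403-88631964, plus strand, hg38) was at 23.5 and 21.97 FPKM in WT clones 1 and 2. It was at 17.1, 16.2 and 16.1 FPKM in -/+ clones 2, 1 and 3. It was at 14.3, 13.98 and 8.70 FPKM in trunc/+ clones 1, 2 and 3. The order of the clones was therefore also the order of the genotypes, with a gap of 4.89 FPKM between the WT and -/+ clones and of 1.86 FPKM between the -/+ and trunc/+ clones, and an association with the dose cannot be told apart from one with the genotype. These values set the order and are a description. They sum the RNA of both alleles and do not measure ZC3H18 protein. The paper detected a truncated protein in trunc/+ clones and proposes that it is dominant negative, so RNA level need not follow ZC3H18 function. The whole range was 1.33 on the log2(FPKM + 1) scale, or 2.70-fold in FPKM, and most of the lower end came from trunc/+ clone 3. Neighbours such as -/+ clones 1 and 3, or trunc/+ clones 1 and 2, lay so close that 1 library of each gives no measure of whether they differ. The bulk controls were at 38.1, 13.9 and 48.7 FPKM and the bulk Z18 CRISPR pools at 10.4, 11.9 and 12.8 FPKM, so bulk control 2 lay near the edited pools.

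**Figure D1:**
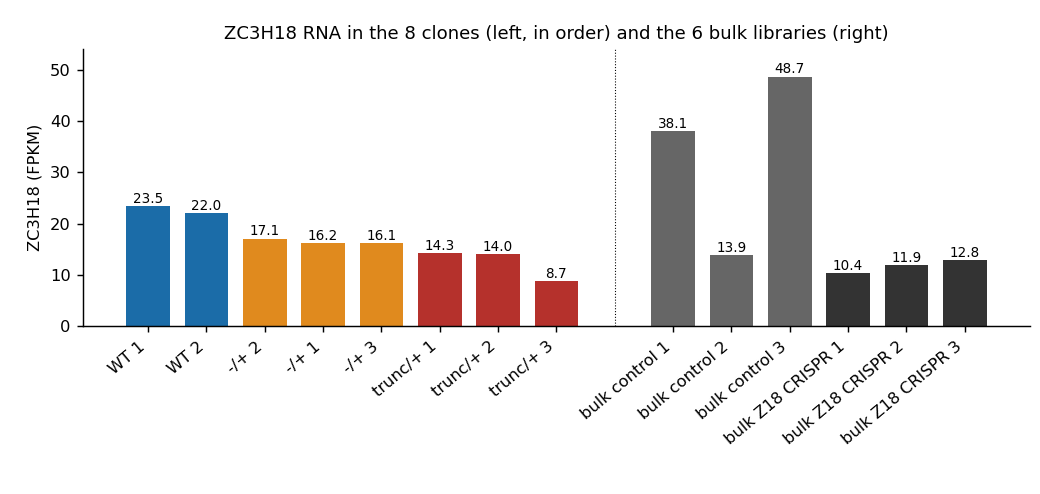
Bars show the ZC3H18 level (FPKM, vertical axis from 0) in each of the 8 clones, in order, and the 6 bulk libraries, coloured by group, 1 bar per library. The clones run from 23.5 FPKM in WT clone 1 to 8.70 FPKM in trunc/+ clone 3 with no overlap between genotypes, and bulk control 2 sits at 13.9 FPKM among the edited libraries.

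The clones held 18742399 to 33018360 aligned fragments and 11901 to 12159 genes with at least 1 FPKM. Neither moved with the dose (Spearman's rho -0.286, exact permutation p = 0.50, and 0.0952, p = 0.84, n = 8 clones). The melanocyte lineage factor SOX10 was at 47.8 to 212 FPKM and MITF at 2.48 to 19.7 FPKM, whereas the pigment genes MLANA and TYR were listed at 0 in every clone, PMEL reached 0.401 FPKM and DCT 0.164 FPKM. The 8 melanocyte markers together ranged from 67.9 FPKM in -/+ clone 3 to 477 FPKM in -/+ clone 1. The 6 epithelial markers ran from 176 to 698 FPKM, with EPCAM and CDH1 near 0, and the 7 fibroblast markers from 2.05 to 9.64 FPKM. The 7 haematopoietic markers summed to 207 to 1439 FPKM, nearly all of it CD74, the invariant chain of MHC class II, with PTPRC at most 0.0305 FPKM. Each library is a clone of 1 cell line and not a mix of tissues. Fewer cells that express a marker and less RNA per cell cannot be told apart in such libraries, and the part of these differences in the results was not tested.

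No gene tracked ZC3H18 RNA past the correction for all genes. The exact rank test called 0 of 12487 genes (0%) at an adjusted p under 0.05, with a smallest adjusted p of 0.538, and limma, which fits a slope of log2(FPKM + 1) per log2 unit of ZC3H18, also called 0 (0%), with a smallest adjusted p of 0.240. Pearson's r with an exact permutation test called 0 as well (smallest adjusted p = 0.298). Before correction, 587 genes (4.7%) had a positive rho and 376 (3.01%) a negative rho at p under 0.05, against 562 (4.5%) and 251 (2.01%) by limma. A rho over 0 was found for 6458 genes (51.7%) and a rho under 0 for 5784 (46.3%), with a median of 0.0476. With 8 clones the smallest p the rank test can give is 4.96e-05 and the smallest found was 0.000397, so with this many genes the rank test can hardly call any, and its 0 says nothing about gene effects. What follows describes genes at the ends of the ranking, and no member of it passed the corrected test.

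In 66 genes (0.529%) rho was 0.9 or more and in 33 (0.264%) it was -0.9 or less. The 12 genes at each end with a mean of at least 3 FPKM are described here, and their rho is what chose them. Their p-values, and their r or rho with clones left out, come from these same clones and are no separate support. SNRPD2, a core Sm protein of the spliceosomal snRNPs (chr19:45687454-45692316), was at 514 and 340 FPKM in WT clones 1 and 2, at 277, 321 and 278 in -/+ clones 1 to 3 and at 198, 259 and 160 in trunc/+ clones 1 to 3. The WT clones were the highest, the trunc/+ clones the lowest, and the 3 genotypes did not overlap (rho 0.952, slope 1.13, SE 0.187). PRPF31, a factor of the U4/U6.U5 tri-snRNP, had 56.1 and 57.4 FPKM in WT clones, 50.3, 54.8 and 52.6 in -/+ and 48.6, 45.5 and 36.2 in trunc/+ clones. CLASRP, a regulator of splicing, ran from 14.9 FPKM in WT clone 2 to 10.8 in trunc/+ clone 3. Both orders followed the genotypes with small steps (rho 0.952 for each).

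POLD1, the catalytic subunit of DNA polymerase delta, was at 23.5 and 25.98 FPKM in WT clones, 21.6, 20.3 and 19.6 in -/+ clones 1 to 3, and 16.3, 17.9 and 11.7 in trunc/+ clones 1 to 3 (rho 0.929, Pearson's r 0.960, exact permutation p = 0.00057, n = 8). Without the 2 clones farthest from the median dose, trunc/+ clone 3 and WT clone 1, its r was 0.935. POLD1 was chosen for its order over these clones, so both values are a description. POLR1H, a subunit of RNA polymerase I, ran from 29.5 FPKM in WT clone 2 to 15.4 in trunc/+ clone 3 (r 0.934, and 0.950 without those 2 clones). COCH, which encodes the secreted protein cochlin, had the steepest slope of the 12: 7.42 and 7.59 FPKM in WT clones, 5.78, 5.598 and 3.84 in -/+ clones, then 1.74 and 0.308 in trunc/+ clones 1 and 2, and it was listed at 0 in trunc/+ clone 3 (rho 0.952, slope 2.63, SE 0.486). In the bulk libraries COCH did not have that sign (rho -0.257, n = 6 libraries). The list went on with CETN3, a centrin, PDCD2L and FAM118A, and with FAM72A and FAM72B, near-identical paralogs whose reads the counting may have split and whose values are uncertain. MIR10394 lies within a longer transcript, from which its reads cannot be told apart, and its value is uncertain.

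At the other end of the ranking, PDK1, a kinase that shuts off pyruvate dehydrogenase and is a known hypoxia target, showed the largest Pearson's r in size and the smallest limma p of all genes, though not the lowest rho. PDK1 was at 1.89 and 1.96 FPKM in the WT clones, 3.32, 3.00 and 2.92 in -/+ clones 1 to 3 and 3.58, 3.93 and 8.49 in trunc/+ clones 1 to 3. The genotypes did not overlap, and trunc/+ clone 3, the clone with the least ZC3H18 RNA, had the most PDK1. Its rho was -0.929 and its r -0.988 (exact permutation p = 9.92e-05, n = 8). Without trunc/+ clone 3 and WT clone 1 r was -0.978. The limma slope was -1.28 (SE 0.154), with a limma adjusted p of 0.240. Over the 6 edited clones alone rho was -0.829, and over the 6 bulk libraries -0.371.

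TCIRG1, a subunit of the vacuolar proton pump of lysosomes, was at 9.27 and 9.35 FPKM in WT clones, 11.9, 10.2 and 12.7 in -/+ and 16.1, 15.6 and 17.1 in trunc/+ clones (rho -0.976). Its r was -0.893 with all clones and -0.911 without the 2 farthest. SGSH, a lysosomal sulfatase that degrades heparan sulfate, had 2.85 and 3.52 FPKM in WT clones and 5.66 in trunc/+ clone 3. CD164, a sialomucin of endosomes and the cell surface, ran from 50.7 FPKM in WT clone 2 to 68.9 in trunc/+ clone 2. CTTN, the actin-binding protein cortactin, ran from 68.4 FPKM in WT clone 2 to 86.4 in trunc/+ clone 3. XPNPEP1, an aminopeptidase, and the long noncoding RNA PCAT7 had the same rho as TCIRG1 (-0.976) over small ranges, 33.1 to 41.8 and 3.35 to 4.30 FPKM. LINC01089, another long noncoding RNA, was at 2.36 and 1.87 FPKM in WT clones, 3.63, 3.10 and 3.33 in -/+ and 5.04, 6.07 and 5.496 in trunc/+ clones. UBL3, WFS1, NHLRC3 and TBC1D25 completed the 12, with slopes from -0.46 to -0.15. Just inside the bounds stood FAM72A (slope 0.73) and CTTN (-0.27), and just outside CENPW (rho 0.929, slope 0.72) and POMGNT2 (rho -0.929, slope -0.24).

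**Figure D2:**
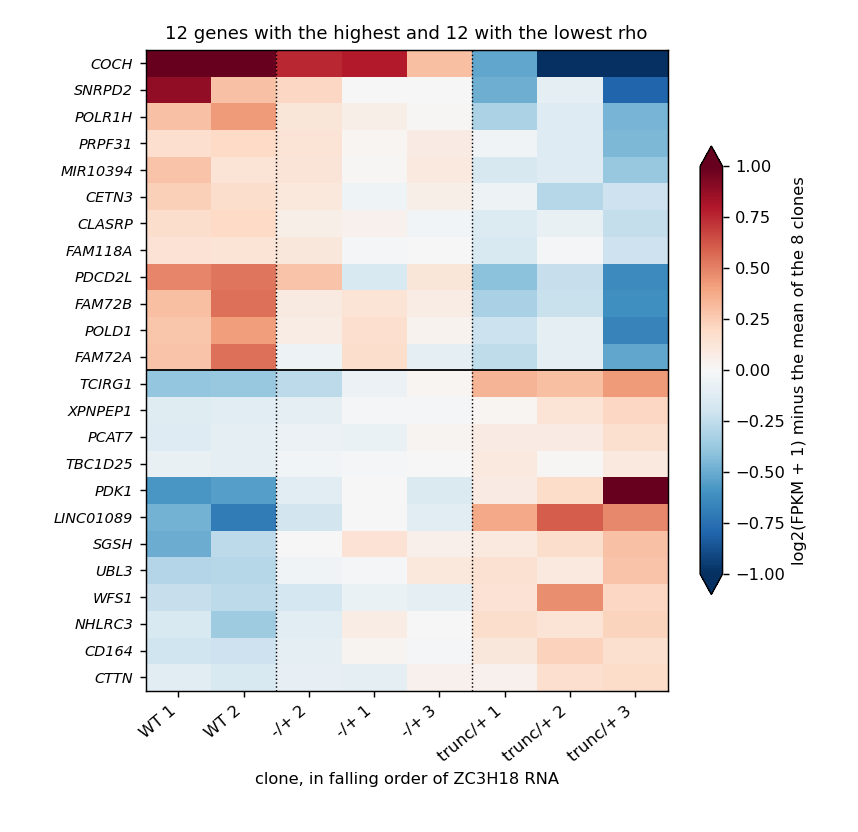
Heat map of the 12 genes with the highest and the 12 with the lowest rho (vertical axis) in the 8 clones in falling order of ZC3H18 RNA (horizontal axis), coloured by log2(FPKM + 1) minus the gene's mean over the clones, with colours ending at -1 and 1. COCH goes from the strongest red in the WT clones to the strongest blue in trunc/+ clones 2 and 3, and the PDK1 cell of trunc/+ clone 3, at 8.49 FPKM, is the darkest of the lower 12 genes.

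The bulk libraries gave the same measure in samples the order did not use, but they were uneven. Bulk controls 2 and 3 held 10951 and 11732 genes with at least 1 FPKM. Bulk control 1 held 12087 and the bulk Z18 CRISPR pools 11945 to 12100. Bulk controls 2 and 3 also stood apart in their TE class shares, given below. Their part in the bulk rho of genes and lists was not tested. Of the 66 genes with a rho of 0.9 or more in the clones, 57.6% had a rho over 0 in the 6 bulk libraries, against 41.3% of all genes tested. Of the 33 with -0.9 or less, 63.6% had a bulk rho under 0, against 58.6% of all genes. Among the leading genes POLD1 (bulk rho 0.714), CLASRP (0.600) and UBL3 (-0.771) had the same sign in the bulk libraries, whereas PRPF31 (-0.714), FAM118A (-0.600) and TCIRG1 (0.429) had the other.

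Of the 12 highest genes, 6 lie on chromosome 19 beyond 30 Mb: SNRPD2, PRPF31, MIR10394, CLASRP, PDCD2L and POLD1. Of the 12 lowest, none does. The position was examined further after this was seen. Of 453 genes tested that start beyond 30 Mb on chromosome 19, 343 (75.7%) had a rho over 0, with a median of 0.31, against a median of 0.0238 over 11511 genes outside the chromosome. At an unadjusted p under 0.05 in the rank test, 521 of the 11511 genes outside the chromosome were positive and 354 negative. Of the 453 beyond 30 Mb, 53 were positive and 0 negative. Trunc/+ clone 3 was the lowest clone in 267 of them (58.9%), against 16.4% of genes outside chromosome 19, and its median deviation from the mean of the clones was -0.383 log2 units, while the other 7 clones lay between 0.025 and 0.142. Without this clone the median rho of the block was 0.107, and that of the genes outside the chromosome was 0.

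The other end of the chromosome lay the opposite way. Of 382 genes under 20 Mb, 145 (38%) had a rho over 0, with a median of -0.143, and trunc/+ clone 3 was the highest clone in 123 (32.2%), against 11.2% outside the chromosome, with a median deviation of 0.183 log2 units. Without it the median was 0.0357. The medians of both ends thus rest in large part on 1 clone, the one with the least ZC3H18 RNA. The rho of the 6 genes at the top stayed at 0.893 or more with any 1 clone left out. They were chosen for a rho near 1 over these same clones, so this cannot show whether they rest on that clone. When all genes beyond 30 Mb were left out, which was chosen after seeing the data, 12034 genes remained. The exact rank test and limma each called 0, and the positive genes at an unadjusted p under 0.05 went from 587 to 534 by rank and from 562 to 456 by limma. Shifts in single clones also occurred on other chromosomes, which were not left out. On chromosome 18 the median deviation was 0.386 in trunc/+ clone 2, 0.285 in -/+ clone 3 and -0.247 in trunc/+ clone 3. It was 0.258 in -/+ clone 2 on chromosome 8. On chromosome 13 it was 0.225 in -/+ clone 1 and -0.203 in trunc/+ clone 2.

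**Figure D3:**
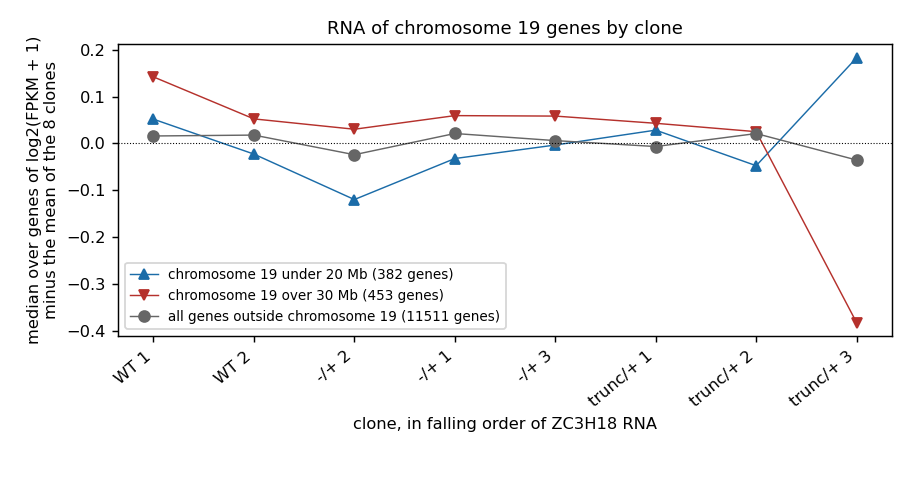
Median over genes of log2(FPKM + 1) minus the gene's mean over the 8 clones (vertical axis) in each clone, in falling order of ZC3H18 RNA (horizontal axis), for genes of chromosome 19 under 20 Mb, genes beyond 30 Mb and all genes outside the chromosome. In trunc/+ clone 3 the genes beyond 30 Mb lie at -0.383 and those under 20 Mb at 0.183, whereas the genes outside the chromosome lie at -0.0356.

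The neighbours of ZC3H18 on the chromosome had mixed signs. Among 21 genes tested within 1 Mb of it on chromosome 16, 7 had a positive and 14 a negative rho, with a median of -0.19. The values ran from -0.857 for SPG7, a mitochondrial protease, to 0.667 for CDT1, a licensing factor of DNA replication.

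Among the partners of ZC3H18, all 13 listed genes of the cap-binding complex and of proteins bound to ZC3H18 were tested, and 0 were called. Of these, 11 had a rho over 0 and 2 under 0, with a median of 0.524 against 0.0476 for all genes. The values came from clones that lay close together. NCBP1, the large subunit of the nuclear cap-binding complex, was at 23.5 and 27.6 FPKM in WT clones, 22.4, 27.1 and 24.6 in -/+ and 18.8, 23.1 and 18.2 in trunc/+ clones (rho 0.714, exact permutation p = 0.0576). NCBP2, its cap-binding subunit, and NCBP3, an alternative partner, each had a rho of 0.548. ALYREF, an mRNA export adaptor, had 0.500 and PABPC1, a poly(A)-binding protein, 0.595. SRRT, the scaffold also named ARS2, had -0.0714, with 47.2 and 48.7 FPKM in WT clones, 45.5, 60.98 and 64.2 in -/+ and 50.4, 42.5 and 55.97 in trunc/+ clones. PHAX, an export adaptor of snRNAs, had 0.0714, and NKAP -0.262. PRPF4B (0.667), RBM25 (0.524) and FNBP4 (0.429), splicing-related proteins, and the cytoplasmic cap-binding protein EIF4E (0.357) lay between. In the bulk libraries the median of the list was -0.257, below the -0.143 of all genes.

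Of 10 listed NEXT and PAXT genes 9 were tested, 7 with a rho over 0 and 2 under 0 (median 0.429, and 0.143 without trunc/+ clone 3). MTREX, the helicase shared by NEXT and PAXT, had the highest. It was at 57.5 and 57.9 FPKM in WT clones, 54.8, 48.9 and 45.7 in -/+ and 37.99, 46.9 and 44.1 in trunc/+ clones, so that the WT clones were above all others while -/+ clone 3 fell among the trunc/+ clones (rho 0.833, exact permutation p = 0.0154, adjusted over all genes 0.541 by the same test). ZCCHC8, the NEXT scaffold, had 0.595. ZFC3H1, the PAXT scaffold, and RBM26 and RBM27, zinc finger proteins that work with PAXT, each had 0.429. RBM7, the RNA-binding subunit of NEXT, had 0.238 and CDK13, a kinase of transcription, 0.214. ZC3H3 had -0.333 and PABPN1, the nuclear poly(A)-binding protein, -0.381. The bulk median was -0.314.

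All 14 exosome genes were tested (10 over 0, 4 under 0, median 0.417, bulk 0.400). At an unadjusted p under 0.05 in the rank test 2 were positive, as were 4.7% of all genes. EXOSC5, a ring subunit, was at 70.8 and 65.4 FPKM in WT clones, 66.2, 61.8 and 55.9 in -/+ and 44.01, 48.3 and 37.5 in trunc/+ clones. It starts on chromosome 19 beyond 30 Mb. EXOSC2, a cap subunit, was at 49.4 and 45.7 in WT clones, 40.04, 41.2 and 44.3 in -/+ and 26.9, 33.3 and 38.2 in trunc/+ clones. Of 18 genes of nonsense-mediated decay, 15 were over 0 (median 0.381), led by RNPS1 (0.833) and UPF2 (0.738), but the bulk median was -0.286. Of 25 genes that silence TEs, 21 were over 0 and 3 under 0 (median 0.429, bulk 0.314). Among these, SUV39H2, a histone H3K9 methyltransferase, was at 11.3 and 12.02 FPKM in WT clones, 10.3, 9.72 and 9.46 in -/+ and 6.16, 8.62 and 8.21 in trunc/+ clones.

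Cell cycle genes had the highest median of the lists. All 38 were tested, 35 over 0 and 3 under 0, with a median rho of 0.583, and 0.429 without trunc/+ clone 3. Of the 38, 8 were positive at an unadjusted p under 0.05 in the rank test, as were 4.7% of all genes. The sign was shared by the bulk libraries, where 30 of 38 were over 0 (median 0.629, against -0.143 for all genes). MCM6, a subunit of the replicative helicase, was at 38.1 and 40.04 FPKM in WT clones, 37.3, 36.5 and 36.99 in -/+ and 26.8, 28.95 and 26.3 in trunc/+ clones. WT and -/+ clones lay close together and the trunc/+ clones stood apart below (rho 0.881, exact permutation p = 0.00724). The list as a whole had that form, though trunc/+ clone 3 lay lowest. The median deviation of its members from the mean of the clones was -0.073, -0.129 and -0.340 log2 units in trunc/+ clones 1 to 3. The median difference over the list was -0.0203 log2 units for WT minus -/+ means and 0.327 for -/+ minus trunc/+ means. Of its members, 97.4% were higher in -/+ than in trunc/+ clones, against 50.3% of all genes. CDK2 had a rho of 0.857.

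The MCM6 promoter is shown as the start of a cell cycle gene from RefSeq (GRCh38.p14, chr2:135876394-135876693, minus strand, from 250 bases before to 50 after the transcription start). Capitals mark the letters TTTGGCGC, one of 2 forms searched on both strands for E2F factors, the other being TTTCCCGC. At least 1 of them is held by 2.27% of the 35116 promoters in the RefSeq table. Counted by gene, the share was 4.83% of the 9663 genes that were tested and had a promoter there. Only 30 of the 38 cell cycle genes had a promoter there, so no share is given for the list.
MCM6: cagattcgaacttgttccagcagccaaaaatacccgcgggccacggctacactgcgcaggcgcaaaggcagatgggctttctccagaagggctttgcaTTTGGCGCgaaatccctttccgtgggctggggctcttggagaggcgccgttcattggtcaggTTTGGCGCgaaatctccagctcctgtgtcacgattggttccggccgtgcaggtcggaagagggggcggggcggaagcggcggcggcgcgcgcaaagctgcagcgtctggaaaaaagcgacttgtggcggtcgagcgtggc

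Hypoxia and glycolysis genes had a low median. Of 28 tested, 25 were under 0 and 3 over 0 (median -0.369, and -0.25 without trunc/+ clone 3, bulk -0.600). At an unadjusted p under 0.05 in the rank test 3 were negative, as were 3.01% of all genes. After PDK1 stood BNIP3L, a receptor for the removal of mitochondria, with 17.2 and 17.4 FPKM in WT clones, 17.3, 20.4 and 19.9 in -/+ and 23.3, 22.2 and 24.7 in trunc/+ clones (rho -0.857 in the clones, -0.943 in the bulk libraries). Here too the larger step lay between -/+ and trunc/+ clones (median of -/+ minus trunc/+ -0.221 log2 units, 3.57% of members higher in -/+), against -0.019 for WT minus -/+ clones. The median deviation from the mean of the clones was 0.118, 0.055 and 0.304 log2 units in trunc/+ clones 1 to 3.

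For PDK1 RefSeq has 2 starts with promoters, chr2:172555123-172555422 and chr2:172555840-172556139 (plus strand, GRCh38.p14). The second is shown because it holds the core letters of the hypoxia response element, ACGTG, read on the other strand as CACGT and marked in capitals. The first holds neither. Promoters were matched for 24 of the 28 hypoxia and glycolysis genes, and 18 of their 41 promoters (43.9%) held ACGTG or CACGT, against 21.4% of all promoters in the table. Counted by gene these were 15 of 24 (62.5%), against 32.7% of the 9663 genes that were tested and had a promoter there, out of 12487. This is a count of letters and not of bound sites.
PDK1: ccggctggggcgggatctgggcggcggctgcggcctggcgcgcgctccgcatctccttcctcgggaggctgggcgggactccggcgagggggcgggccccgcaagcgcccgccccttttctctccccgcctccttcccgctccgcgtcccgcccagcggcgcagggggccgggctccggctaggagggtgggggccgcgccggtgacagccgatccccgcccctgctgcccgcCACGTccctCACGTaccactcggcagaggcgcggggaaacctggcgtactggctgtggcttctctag

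The immediate early and inflammatory lists had negative medians that rested on the trunc/+ clones. Of 19 AP-1 and immediate early genes 15 were under 0 (median -0.262, and -0.036 without trunc/+ clone 3), with WT means above -/+ means by a median of 0.221 log2 units and a median of -0.662 for -/+ minus trunc/+ means, so that the trunc/+ clones were higher. JUND, an AP-1 subunit, was at 45.4 and 45.1 FPKM in WT clones, 46.97, 31.0 and 39.7 in -/+ and 55.2, 77.6 and 83.7 in trunc/+ clones, and its gene lies on chromosome 19 under 20 Mb. KLF4, a zinc finger factor, had a rho of -0.738. Of 17 genes of MAPK output, the pathway that mutant BRAF drives, 12 were under 0 (median -0.19). DUSP4, a phosphatase that damps ERK, was at 67.3 and 20.3 FPKM in WT clones, 59.1, 57.0 and 76.5 in -/+ and 99.7, 91.1 and 71.7 in trunc/+ clones, and the 2 WT clones differed more from each other than -/+ from trunc/+ clones did. Of 65 NF-kB and TNF targets 43 were under 0 (median -0.167, and -0.036 without trunc/+ clone 1), among them SPHK1, a sphingosine kinase (rho -0.905), and NFKBIZ, a nuclear IkB protein (-0.786). The study drew attention to this pathway in the trunc/+ clones of this series. It also listed gene sets of EGF signalling, hypoxia and viral infection as enriched there. The direction of the lists here, and of the hypoxia and interferon lists, is therefore not independent evidence.

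Of 56 interferon response genes 43 were also under 0 in the clones (median -0.167, 0 without trunc/+ clone 2 and -0.393 without trunc/+ clone 3), whereas in the bulk libraries the median was 0.657. B2M, the light chain of MHC class I, was at 554 and 554 FPKM in WT clones, 618, 612 and 639 in -/+ and 1244, 885 and 702 in trunc/+ clones (rho -0.881). IRF9, the DNA-binding subunit of the interferon factor ISGF3, was at 2.66 and 2.81 in WT clones, 3.78, 4.19 and 3.28 in -/+ and 9.33, 12.4 and 4.81 in trunc/+ clones. Both were highest in trunc/+ clones 1 and 2 and not in clone 3.

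For ribosomal protein genes the larger step between genotype means lay between WT and -/+ clones. Of 58 tested, 54 were over 0 (median 0.262), and 93.1% were higher in WT than in -/+ clones by a median of 0.155 log2 units, against a median of 0.0555 for -/+ minus trunc/+ clones. Trunc/+ clone 3 held the highest median of the 8 clones, 0.200 above the mean, while trunc/+ clones 1 and 2 held the lowest, -0.171 and -0.227. The mean of the trunc/+ clones thus averages shifts in opposite directions. Without clone 3 the median rho was 0.821. In the bulk libraries the median of the list was -0.143, as for all genes. In genes that host snoRNAs, whose spliced RNA is often short-lived, trunc/+ clone 3 also held the highest median (19 of 26 over 0, median rho 0.226, and 0.625 without clone 3). SNHG16 was at 70.3 and 69.4 FPKM in WT clones, 64.3, 69.8 and 65.7 in -/+ and 48.7, 52.9 and 62.7 in trunc/+ clones.

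Heat shock genes had a median of 0.333 (9 of 13 over 0), which was 0 without trunc/+ clone 3. In the remaining lists the medians were respiratory chain 0.143 (24 of 40 over 0, and 0.339 without trunc/+ clone 3), integrated and unfolded protein stress 0.0952 (20 of 29, and 0.429 without that clone), ERV-derived genes 0.0952 (7 of 11, and -0.214 without it), p53 targets and sterol synthesis 0.0476 each (15 of 27 and 14 of 25, and -0.214 and -0.071 without it), NRF2 targets 0.0119 (10 of 20, and -0.232 without it), melanocyte genes -0.0476 (5 of 11, and 0.214 without it) and genes of dedifferentiated melanoma -0.0952 (12 of 33, and -0.179 without it). PSAT1, an enzyme of serine synthesis in the stress list, was an exception among their members. It was at 118 and 120 FPKM in WT clones, 84.6, 92.7 and 84.2 in -/+ and 51.96, 76.9 and 71.0 in trunc/+ clones. Its rho was 0.905 in the clones but -0.886 in the bulk libraries, where the median of the stress list was -0.543. FASN, the fatty acid synthase, also had a rho of 0.905 in the clones. Replication histones, whose RNAs lack a poly(A) tail, had a median of -0.44 over the 10 of 25 tested, at levels where H4C8 was listed at 0 in WT clone 1 and -/+ clone 2 and reached 1.84 FPKM in -/+ clone 3.

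**Figure D4:**
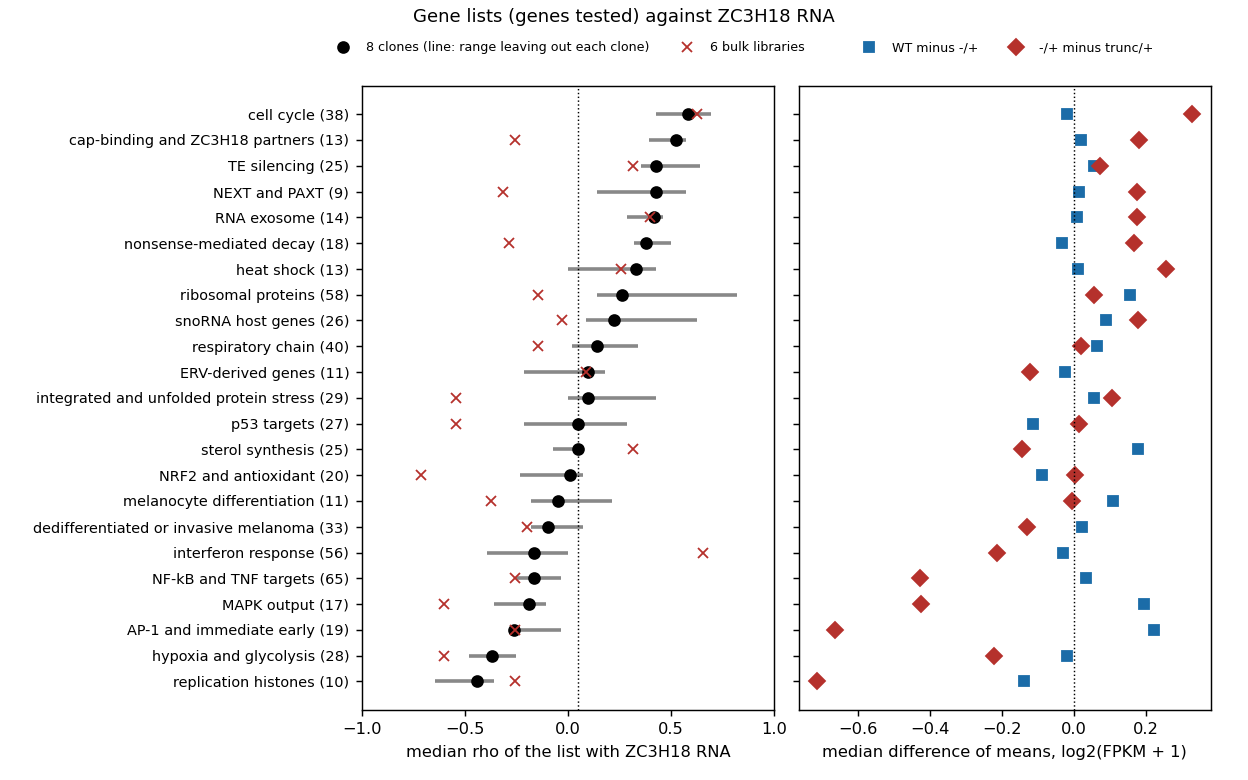
Left, median Spearman's rho with ZC3H18 RNA of each gene list in the 8 clones (black, with the range when each clone is left out) and in the 6 bulk libraries (red crosses), with the median of all genes dotted. Right, median difference of group means (log2(FPKM + 1)) for WT minus -/+ and for -/+ minus trunc/+ clones; cell cycle stands at -0.0203 and 0.327, ribosomal proteins at 0.155 and 0.0555.

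No TE class sum was called as following ZC3H18 RNA across the 8 clones. With so few clones this does not show that the sums were unrelated to it. Counts on the strand of the element, scaled to the aligned fragments of each library (CPM), gave a rho of -0.262 for LTR, -0.214 for LINE, -0.381 for SINE and -0.500 for DNA elements, and of 12 classes and families the exact rank test called 0 (0%, smallest adjusted p = 0.649). None of the 12 had an unadjusted p under 0.05 in the rank test or by Pearson's r. The LTR sum was 4842 and 5726 CPM in WT clones 1 and 2, 4847, 5818 and 6185 CPM in -/+ clones 1 to 3 and 6895, 7129 and 4745 CPM in trunc/+ clones 1 to 3. Trunc/+ clones 1 and 2 were the highest and trunc/+ clone 3, with the least ZC3H18 RNA, was the lowest of all. Pearson's r was -0.00997 (exact permutation p = 0.98, n = 8), and -0.516 without trunc/+ clone 3 and WT clone 1. Over the 6 edited clones rho was -0.0857.

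The rho values of LTR and of the ERV1 and ERVL families changed most when trunc/+ clone 3 was left out. In LTR and ERV1 this clone was not alone at the low end. ERV1 was at 2030, 2032 and 2005 CPM in WT clone 1, -/+ clone 1 and trunc/+ clone 3. In the other clones it was at 2917 to 4055 CPM. Without trunc/+ clone 3 the LTR rho was -0.893 (exact permutation p = 0.0123, n = 7, adjusted over 12 sums 0.0738) and that of the ERVL family -0.964 (p = 0.00278, adjusted 0.0333), while with it ERVL was at -0.595 (exact permutation p = 0.132). ERV1 went from -0.238 to -0.857 and ERVK from -0.524 to -0.607. The MIR family had the lowest rho with all 8 clones, -0.667 (exact permutation p = 0.0831), and was at -0.679 without trunc/+ clone 3. Without that clone SINE (-0.357) and DNA (-0.429) changed little, and LINE was at -0.571. Leaving out WT clone 1 instead put LINE at 0.179. In the 6 bulk libraries rho was -0.771 for LTR, -0.943 for LINE and for DNA (exact permutation p = 0.0167 for each, adjusted over 12 sums 0.0571) and 0.0857 for SINE elements. Bulk controls 2 and 3 stood apart there, with SINE elements at 66.6% and 63.9% of the 4 classes against 45.3% to 47.8% in the other bulk libraries, and LINE elements at 17.2% and 15.9% against 27.4% to 29.6%. Their part in the bulk values was not tested.

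Single subfamilies and copies were fitted with edgeR's quasi-likelihood test as a slope per log2 unit of ZC3H18. Of 976 subfamilies 0 were called (0%), 14 (1.43%) had a positive and 19 (1.95%) a negative slope at an unadjusted p under 0.05, and DESeq2 also called 0. The smallest p of a negative slope belonged to LTR53-int, an ERVL internal sequence with 16.3 and 13.4 CPM in WT clones, 18.8, 16.8 and 17.0 in -/+ and 19.96, 17.9 and 26.3 in trunc/+ clones (rho -0.857, bulk -0.657). LTR40a, LTR5B, Charlie3 and MER57A-int followed. LTR5B, a repeat of the HERV-K group, was at 15.97 and 11.4 CPM in WT clones, 14.4, 12.2 and 13.3 in -/+ and 27.3, 14.96 and 33.2 in trunc/+ clones. Positive slopes were led by LTR61, LTR76, Charlie11, PABL_B-int and L1HS. L1HS, the youngest human LINE-1 subfamily, was at 59.3 CPM in trunc/+ clone 3 and at 94.8 to 125 CPM in the other clones, so its slope of 0.56 (SE 0.212) rested on 1 clone.

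Of 21634 copies 0 were called (0%), with 383 (1.77%) positive and 322 (1.49%) negative at an unadjusted p under 0.05. At such low counts in 8 clones this test has little reach, and 0 calls does not show that copies were alike. Without trunc/+ clone 3 it called 3, all negative. The copies with the smallest p were mostly low. An SVA_D copy outside annotated genes (chr9:87758582-87759887, minus strand) was at 2.27 and 1.68 CPM in WT clones, 0.926, 1.07 and 0.0419 in -/+ and 0.0506, 0 and 0 in trunc/+ clones, and at 0 in all 6 bulk libraries. An L1ME4a copy in an intron of BHLHE40, on the strand of that gene (chr3:4982468-4982625), was at 0 in both WT clones, 0.0403, 0.107 and 0.209 in -/+ and 0.545, 1.87 and 2.10 in trunc/+ clones. A count of 0 allows up to 3 counts, or 0.0909 to 0.160 CPM in these clones, counting error only, so the lowest of these values were not distinguishable from 0. Others lay within transcripts and share their reads: the AluSz6 copy with a positive slope overlaps an exon of SNHG30, whose own rho was 0.810, and the MLT1H1 copy overlaps an exon of ZFP82 on chromosome 19 beyond 30 Mb.

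The study singled out ERV copies of MER4-int and HERVK3-int from libraries of this series, so the direction of copies in these regions is not independent evidence. They are shown by their first 150 bases on the plus strand of hg38. The HERVK3-int copy (chr16:35517050-35524053, 7004 bases) overlaps an exon of the long noncoding RNA ENSG00000287448 on the same strand, and their reads cannot be told apart. The MER4-int copy (chr14:105037813-105038415, 603 bases), taken as the one on chromosome 14 with the highest mean count, overlaps no annotated gene. The study gives its MER4-int copy a start upstream of this one, so the sequence and values here are those of a neighbouring segment of the same cluster.
HERVK3-int: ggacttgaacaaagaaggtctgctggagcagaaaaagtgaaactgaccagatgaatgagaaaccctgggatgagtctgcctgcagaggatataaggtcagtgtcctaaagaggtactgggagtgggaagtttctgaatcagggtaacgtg
MER4-int: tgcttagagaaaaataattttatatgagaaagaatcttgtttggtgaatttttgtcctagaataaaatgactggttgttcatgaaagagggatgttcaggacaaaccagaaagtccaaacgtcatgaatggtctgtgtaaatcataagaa

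HERVK3-int was at 9.63 and 11.1 CPM in WT clones, 19.4, 16.2 and 7.12 in -/+ clones 1 to 3 and 27.5, 55.1 and 29.9 in trunc/+ clones 1 to 3. The trunc/+ clones were above all others, and -/+ clone 3 was below the WT clones. Its rho was -0.738 (exact permutation p = 0.0458) and its r -0.638 (exact permutation p = 0.0822, n = 8), both among 21634 copies, with an edgeR slope of -1.71 (SE 0.638) and an edgeR adjusted p of 0.9999. Without the 2 farthest clones r was -0.637. The bulk controls were at 3.59, 0.971 and 1.15 CPM and the bulk Z18 CRISPR pools at 5.13, 8.51 and 6.41, so these did not overlap (bulk rho -0.657).

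MER4-int was at 0.289 and 0 CPM in WT clones, 0.805, 0.160 and 0 in -/+ and 1.70, 4.47 and 1.71 in trunc/+ clones (rho -0.707, exact permutation p = 0.0595, edgeR slope -4.00, SE 1.75). It is 1 of 9 MER4-int segments on this strand within 10 kb, which lie between positions 105033004 and 105039940 of chromosome 14, and their sum was taken after these values were seen. The summed level was 0.541 and 0.713 CPM in WT clones, 1.77, 1.12 and 1.089 in -/+ and 4.45, 14.6 and 4.50 in trunc/+ clones. Here the 3 genotypes did not overlap, with a rho of -0.905 in the clones and -0.886 in the bulk libraries, where the controls were at 3.90, 2.16 and 1.35 CPM and the bulk Z18 CRISPR pools at 8.44, 8.76 and 5.87. The most upstream of the 9 segments was at 0.0361 and 0.279 CPM in WT clones, 0.362, 0.161 and 0.502 in -/+ and 0.451, 2.23 and 0.802 in trunc/+ clones. Each of the 9 segments had a negative rho in the clones, from -0.929 to -0.443, and in the bulk libraries. Segments of 1 transcript share fragments and are not separate measurements.

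**Figure D5:**
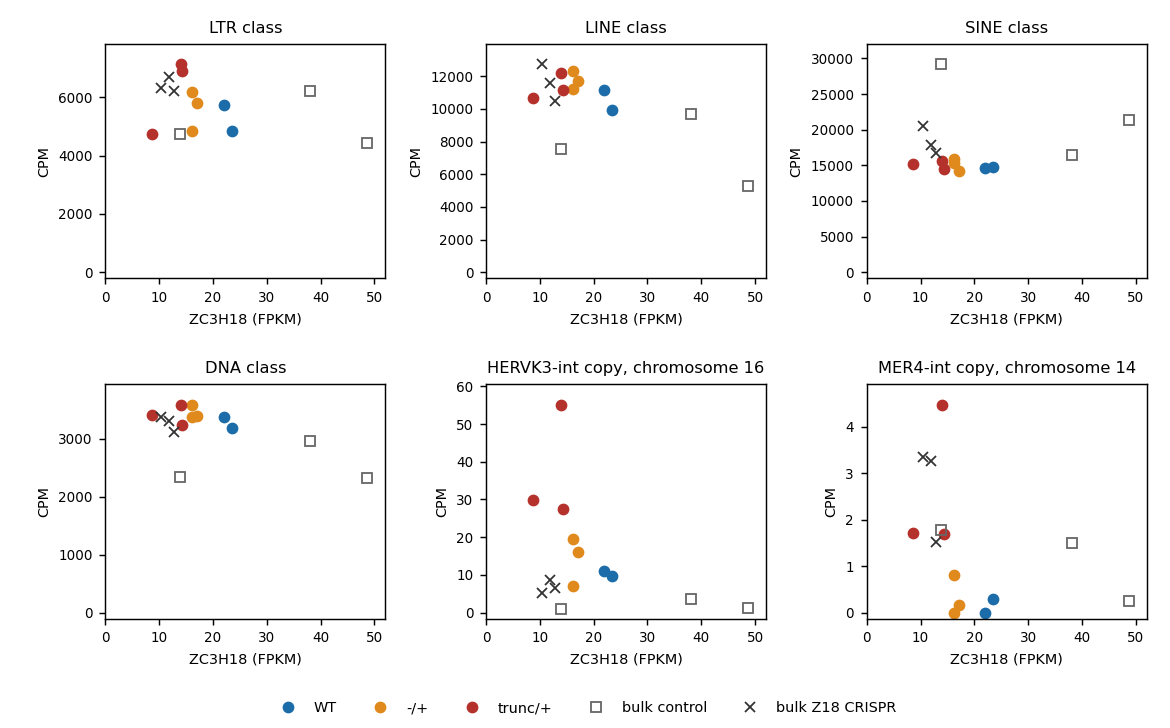
TE class sums and the HERVK3-int and MER4-int copies (CPM, vertical axes from 0) against the ZC3H18 level (FPKM, horizontal axis), 1 point per library, with clones filled and coloured by genotype and bulk libraries as open squares (control) and crosses (Z18 CRISPR). In the LTR panel the leftmost point, trunc/+ clone 3 at 4745 CPM, lies below the other trunc/+ clones, and in the HERVK3-int panel the 3 trunc/+ clones, from 27.5 to 55.1 CPM, lie above all others.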

How the data were processed

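PolyA-selected, stranded, paired-end RNA-seq libraries of A375 cells were used, 14 in all, 1 per clone or pool. The authors trimmed reads with cutadapt 4.6 and, per the labels, used hg38. They estimated FPKM and TPM per gene with StringTie over RefSeq, and the deposited FPKM and TPM values were used as given. TE copies were quantified by the authors with SQuIRE over RepeatMasker elements, which deposited a unique count, an estimated count that shares out multi-mapped fragments, and a coverage signal (FPKM of the transcript at the copy) for each. Multi-mapped fragments make values of young, near-identical copies less certain, and FPKM carry no counts, so depth per gene is unknown. Every per-sample column mapped to a sample.

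From these, Spearman's rho and Pearson's r with ZC3H18 log2(FPKM + 1) were computed over the 8 clones, with two-sided exact permutation tests over 40320 orders and Benjamini-Hochberg adjustment over 12487 genes with at least 1 FPKM in 3 clones. Slopes on log2(FPKM + 1), which understates changes of low genes, came from limma 3.58.1 with trend (R 4.3.3). TE counts on the strand of the element, rounded, were tested with edgeR 4.0.16 (quasi-likelihood, filter at a count of 10, library size aligned fragments), with DESeq2 1.42.0 as an alternative. The threshold was an adjusted p of 0.05. Tests were tried on simulated data with 200 changed features. Depth was 18742399 to 33018360 aligned fragments in the clones and 15615675 to 32035781 in the bulk libraries.

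Clones, gene lists and TE copies were chosen with earlier results of these data known. The genes named are the 12 with the highest and 12 with the lowest rho at a mean of at least 3 FPKM (ties by slope), the 2 members of each list with the largest rho in size, all cap-binding, partner, NEXT and PAXT genes, the HERVK3-int copy on chromosome 16 and the MER4-int copy on chromosome 14 with the highest mean count, subfamilies which the study singled out, and the 5 subfamilies and copies with the smallest edgeR p in each direction. Marker genes, SPG7, CDT1 and the 9 MER4-int segments were named after values were seen. Some genes that this rule names are not reported here. Lists were described by counts and medians with no test. Alternatives were a pseudocount of 0.1, filters, quantile and TPM scaling, both strands, unique counts, a genotype term, the replicate number as a block and leaving out each clone.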

Additional observations from a re-analysis of the deposited data

How the results depend on the processing

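Counts of called genes, subfamilies and copies were 0 under 57 of 60 combinations of test and setting, which is no sign of stability where, as for the gene ranks and the TE copies, the test could hardly call any. The exceptions were copies of TEs, of which edgeR called 2 with the replicate number as a block and DESeq2 with aligned library sizes called 1, and leaving out each clone in turn gave 0 to 3. Replicate numbers did not pair the clones (correlations of deviations from -0.56 to 0.52 over 7 same-numbered pairs, median -0.0381), and the block moved limma's genes at an unadjusted p under 0.05 to 683 positive and 452 negative with 0 called. TE class rho values kept their sign and side in 137 of 156 recomputations. As a share of the 4 classes rho was 0.0238 for LINE, 0.0952 for SINE, 0.119 for DNA, 0.0714 for L1, 0.119 for Alu and 0.191 for MIR. Over the 6 edited clones it was 0.543 for LINE and for L1, 0.314 for L2 and -0.143 for ERVL-MaLR, which was at -0.310 with both strands and at -0.429 without the 2 farthest clones. Leaving out each clone gave -0.571 to 0.179 for LINE and for L1, -0.607 to 0.143 for L2 and -0.25 to 0.286 for ERVL-MaLR. For ERVL the same range ended at -0.964, without trunc/+ clone 3, and began at -0.393.

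Of 1603 values of named genes 14 reversed. With a genotype term the slopes of LINC01089 and WFS1 were 0.0146 and 0.117. Over the edited clones rho was -0.0857 for NCBP2, 0.314 for SRRT and 0.0857 for ZC3H3, and under quantile scaling 0.0714 for SRRT. Leaving out each clone gave -0.429 to 0.107 for SRRT, -0.25 to 0.321 for PHAX, -0.536 to 0.0357 for NKAP, -0.143 to 0.607 for RBM7 and -0.0714 to 0.464 for CDK13. Of 230 list medians 56 moved by more than 1 SD of the medians with each clone left out, and a sign changed under some setting in the melanocyte, dedifferentiated melanoma, p53, NRF2, sterol, respiratory chain and ERV-derived lists. Except for clones left out, whose absence is the construction, the cause was not tested. The 8 libraries limit the ranking, and 1 library per clone gives no error within a clone.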
